A study of Homo sapiens with 4 samples.

Results

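The genes described here encode translation initiation factors, the proteins that bring a ribosome, the initiator tRNA and a messenger RNA together at a start codon. Members were all gene symbols listed in both deposited tables that begin with EIF and a digit from 1 to 6, leaving out the EIF2AK kinases, EIF1AY and read-through symbols with a hyphen. This rule, which used no measured value, gave 51 of the 19732 symbols in the A549 table. A549 is an established lung adenocarcinoma cell line, grown in serum-containing medium. One A549 sample was a control and the other had a knockdown of RBM4, an RNA-binding protein of splicing and translation. Each group had 1 library, made from total RNA, so no difference below has a replicate check and no test of it was possible. H1299, the other lung cancer line of the series, also had a control and an RBM4 knockdown sample, and its values were not analysed here. The sources used here give neither the kind of control nor the time after knockdown.

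Initiation starts when EIF2, loaded with GTP and the initiator tRNA, joins the small ribosomal subunit together with EIF1, EIF1A, EIF3 and EIF5. The cap-binding protein EIF4E, the scaffold EIF4G and the helicase EIF4A recruit the messenger RNA, and the 4E-binding proteins (the EIF4EBP genes) block this step by occupying EIF4E when mTORC1 signalling is low. EIF5B then joins the large subunit, and EIF2B recharges EIF2 with GTP, a reaction that stress kinases shut down by phosphorylating the EIF2 alpha subunit.

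Levels are FPKM, that is sequenced fragments set against transcript length and library size, summed over the transcripts of a symbol, so that levels of different genes can be compared per length. Differences are on the log2(FPKM + 1) scale, knockdown minus control, which understates the change of low genes. A negative value means lower in the knockdown library. The 2 columns were told apart by their names only. RBM4 itself had 59.4 FPKM in the library read as the control and 30.6 FPKM in the other, which is 51.5% of the control. The epithelial marker list, at 6 of 6 genes detected, added up to 5419 FPKM in the control against 4321 FPKM after knockdown, and its genes went both ways. KRT8 (-0.89), KRT18 (-1.02) and CDH1 (-0.21) were lower, KRT7 (0.38) and KRT19 (1.11) were higher, and EPCAM was at 0.01. The fibroblast list (1 of 5 at 1 FPKM or more) added up to 2.66 and 9.71 FPKM, the blood and immune list (1 of 5) to 2.16 and 4.37 FPKM, and the endothelial list (0 of 4) to 0 and 0.34 FPKM. The genes at 1 FPKM or more in these 3 lists were COL1A1 (2.61 FPKM in the control, 9.47 after knockdown) and CD14 (2.16 and 4.32 FPKM). PECAM1, CDH5, PDGFRB, PTPRC and COL1A2 were listed at 0 in the control and between 0.01 and 0.21 FPKM after knockdown. DCN, CD3E, HBB, VWF and CLDN5 were among those listed at 0 in both libraries. CDKN2A, which A549 cells have lost, was listed at 0 as well. Where the marker sums differ, their part in the results below was not tested.

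Most initiation factor genes were slightly lower in the knockdown library, and 4 of the 7 exceptions were the genes of proteins that bind EIF4E and hold it back or carry it. Of the 51 members, 50 reached 1 FPKM in both libraries, and only EIF4E1B, a relative of EIF4E, was listed at 0 in both. Of those 50, 43 had a difference below 0, against 53.4% of all 12230 genes that reached 1 FPKM in either library. The members' median was -0.22, beside -0.04 for all genes. These genes are abundant, with 38 of them at a mean of 20 FPKM or more, and abundant genes in general were lower: among the 4383 genes at that level 62.6% were below 0, with a median of -0.13. Within that level, 35 of the 38 members were below 0 and their median was -0.25.

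**Figure D1:**
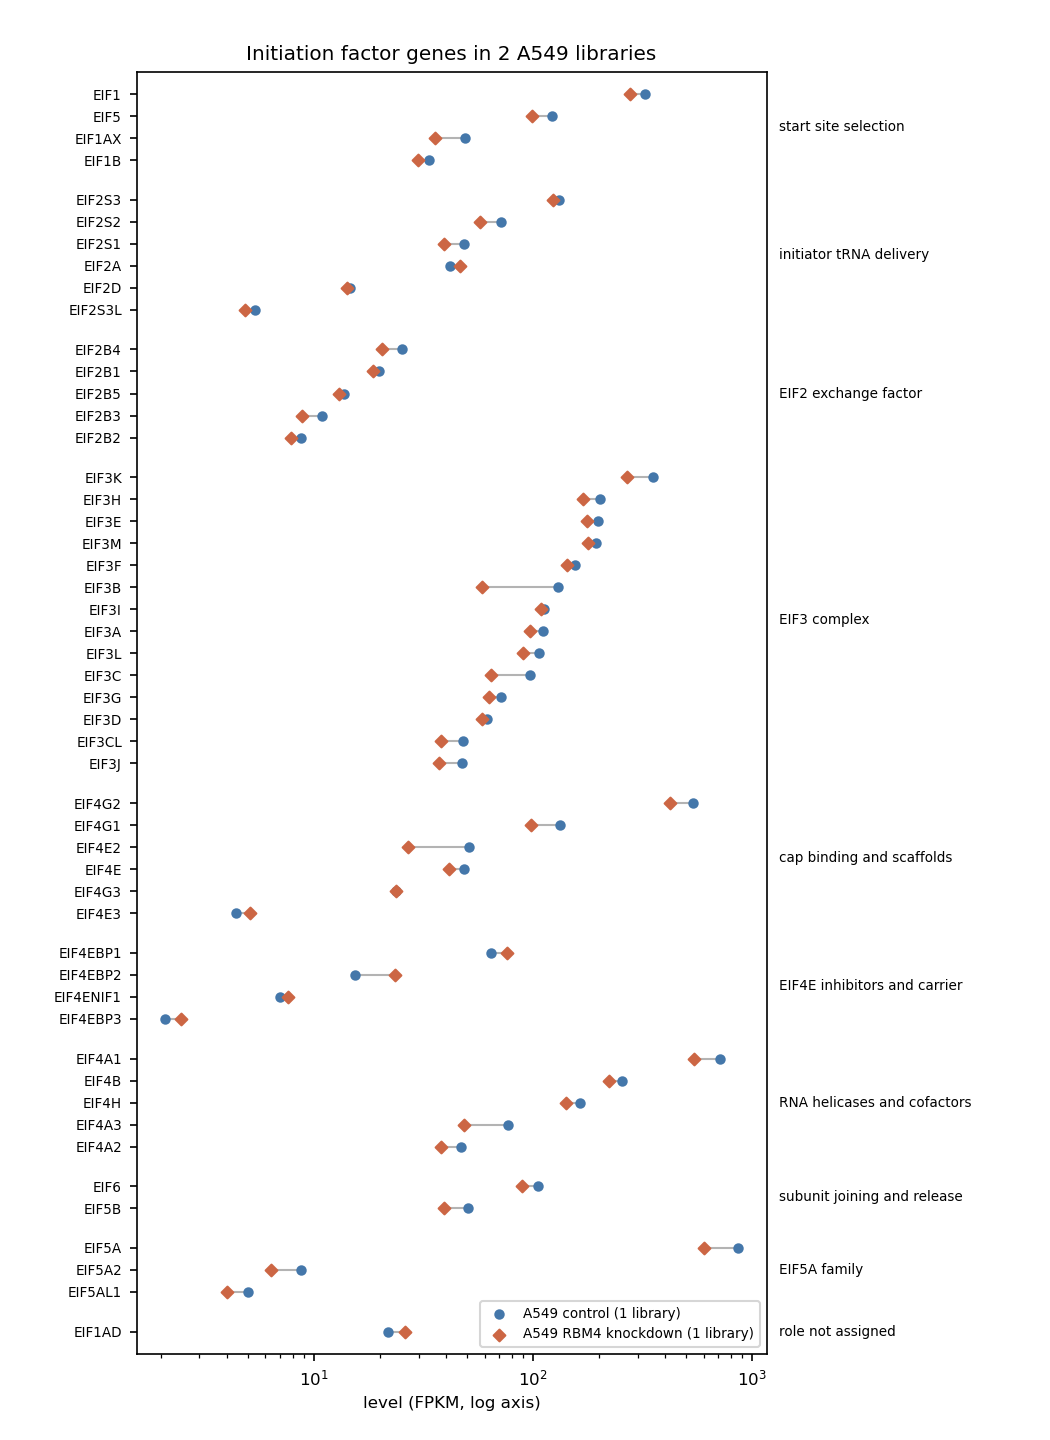
Level of each of the 50 initiation factor genes (FPKM, log axis) in the A549 control library (circles) and the RBM4 knockdown library (diamonds), grouped by role. Levels run from EIF4EBP3 at 2.09 FPKM to EIF5A at 859 FPKM in the control, and the symbols of most pairs nearly touch.

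At 2-fold, 0 members were higher, against 4.96% of all genes, and 1 was lower, against 2.25%. At 1.5-fold, on the log2(FPKM + 1) scale, 0 members were higher (12.7% of all genes) and 4 were lower (9.83%). The 4 were EIF3B, EIF4E2, EIF4A3 and EIF3C, and all were among the 38 abundant members. Of abundant genes in general, 3.13% were higher and 2.94% lower by 2-fold, and 7.99% were higher and 11.8% lower by 1.5-fold. The counts past either threshold therefore lay near or under the background, and the members departed from it mainly in the share with a small negative difference, which was not tested. This share depends on scaling. After both libraries were rescaled to the same total, the median of all genes moved up by 0.10 and 36 members were below 0 (44.0% of all genes). With genes of the mitochondrial genome left out as well, the median of all genes moved up by 0.15 and 30 members were below 0 (39.7% of all genes). The distance between the members' median and that of all genes was -0.18 as deposited, -0.18 after rescaling and -0.17 without mitochondrial genes. Rescaling multiplies each library by a constant and shifts all differences nearly alike. This distance was therefore bound to stay about the same and is no check of the members' difference.

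**Figure D2:**
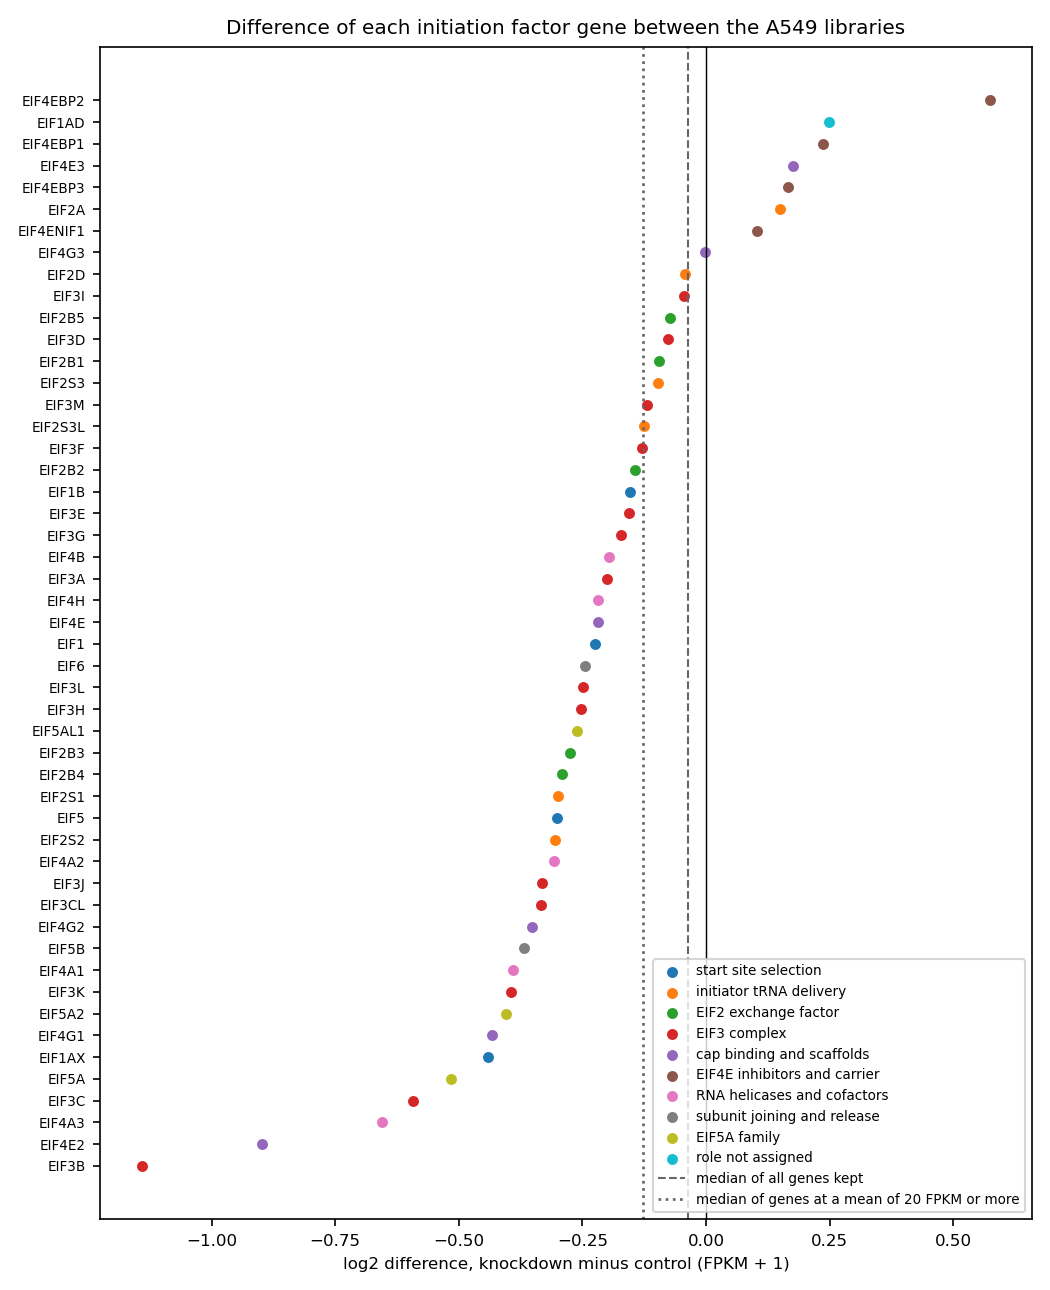
Log2 difference between the A549 knockdown and control libraries for each of the 50 initiation factor genes, coloured by role, with the medians of all genes (-0.04, dashed) and of genes at a mean of 20 FPKM or more (-0.13, dotted). EIF3B lies farthest left at -1.14 and EIF4EBP2 farthest right at 0.57.

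EIF3 is the largest initiation factor, a many-subunit scaffold on the small ribosomal subunit. All 14 of its genes had a difference below 0, with a median of -0.22, beside 53.4% of all genes and 62.6% of abundant ones below 0. Together the 14 held 1886 FPKM in the control against 1549 FPKM after knockdown, or 82.1% of the control. After rescaling to the same total 12 of the 14 were below 0 (44.0% of all genes), and 9 with mitochondrial genes also left out (39.7% of all genes). The sign of the smallest differences thus depends on scaling. EIF3B stood apart from the rest. This gene (ENSG00000106263, chromosome 7, 2354086 to 2380745, plus strand, hg38) encodes a core subunit with an RNA-recognition domain. It had 129.6 FPKM in the control against 58.2 FPKM after knockdown, a difference of -1.14 and 45.0% of the control level. Of all genes, 1.43% had a lower difference. It fell short of 2-fold when only the highest transcript was used (-0.94) and when mitochondrial genes were left out (-0.98).

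The next lowest EIF3 gene was EIF3C, another core subunit, at 97.3 FPKM in the control against 64.2 FPKM after knockdown (-0.59). Its difference was -0.98 by its highest transcript and -0.43 without mitochondrial genes. EIF3CL had 47.9 and 37.8 FPKM (-0.33). The pair cannot be separated by the coding bases compared: over 2739 aligned bases the transcripts ENST00000331666 (EIF3C) and ENST00000380876 (EIF3CL) had 0 mismatches. Their untranslated bases were not aligned, and how reads were shared between the 2 genes was not stated. Their sum was 145 FPKM in the control against 102 FPKM after knockdown. EIF3A, the largest subunit, had 111 and 96.5 FPKM (-0.20). Set against EIF3A within each library, EIF3B went from a ratio of 1.17 to 0.604, and EIF3C with EIF3CL from 1.31 to 1.06. These ratios do not depend on how the libraries are scaled.

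The other EIF3 genes lay between EIF3K, at 352 and 268 FPKM (-0.39), and EIF3I, at 112 and 109 FPKM (-0.04). EIF3J, a loosely bound subunit that acts in recycling, had 47.3 and 37.3 FPKM (-0.33). The cap-recognising subunit gene EIF3D had 61.5 and 58.3 FPKM (-0.08). The remaining subunits EIF3E (-0.16), EIF3F (-0.13), EIF3G (-0.17), EIF3H (-0.25), EIF3L (-0.25) and EIF3M (-0.12) lay between the extremes set by EIF3K and EIF3I. The spread among subunits was thus mainly that of EIF3B and EIF3C.

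The cap-binding and scaffold genes were mostly lower. Of 7 cap-binding and scaffold genes, 6 were detected and 5 of them were below 0 (median -0.28), beside 53.4% of all genes. EIF4E2, whose product binds caps without EIF4G and acts in translational repression, was the second lowest member (ENSG00000135930, chromosome 2, 232550052 to 232583644, plus strand). It had 50.7 FPKM in the control against 26.7 FPKM after knockdown (-0.90), with 3.07% of all genes lower. By its highest transcript the difference was -0.58, just short of 1.5-fold on the log2(FPKM + 1) scale. EIF4E itself, the main cap-binding protein, had 48.4 and 41.4 FPKM (-0.22). EIF4E3, the third relative, was scarce at 4.39 and 5.09 FPKM (0.18). In the control library EIF4E2 was thus listed at the level of EIF4E, and in the knockdown library below it.

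The scaffold EIF4G1, which holds EIF4E, EIF4A and EIF3 together, had 133 FPKM in the control against 98.0 FPKM after knockdown (-0.43). EIF4G2, the abundant relative that lacks an EIF4E-binding site, had 536 and 419.8 FPKM (-0.35). EIF4G3 was nearly the same in both, at 23.8 and 23.7 FPKM, and was the member closest to 0.

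The 4 members grouped here as EIF4E inhibitors and carrier were all above 0, with a median of 0.20, whereas 53.4% of all genes were below 0. Genes outside the members were not part of this group. Of the 17 genes listed below under cap binding and mTORC1 signalling, 12 were below 0 and 5 above. CYFIP1 (-0.03) and GIGYF2 (-0.68) were among those below. Apart from EIF4EBP2, the 4 differed by less than the spread of all genes, a robust standard deviation of 0.447. EIF4EBP2 was the highest of all members (ENSG00000148730, chromosome 10, 70404379 to 70428618, plus strand). It had 15.5 FPKM in the control against 23.5 FPKM after knockdown (0.57), and 86.9% of all genes had a lower difference. EIF4EBP1, the most abundant of the 4E-binding proteins here, had 64.3 and 76.0 FPKM (0.24). EIF4EBP3 had 2.09 and 2.47 FPKM (0.17) and shares exons with a read-through gene, so it is uncertain. EIF4ENIF1, which carries EIF4E into the nucleus and represses bound messages, had 6.99 and 7.58 FPKM (0.10). All 4 stayed above 0 under the settings run, where they were kept. The rescalings and centrings could not turn their sign, since each of these settings moved the median of all genes up. Nor could a change of pseudocount, filter or threshold, or leaving out copies, turn the sign of a difference. The 3 EIF4EBP genes have 1 listed transcript each, so the choice of transcript left them unchanged. Only EIF4ENIF1 by its highest transcript could have turned, and it was at 0.14. EIF4EBP2, at 152% of the control, fell short of 1.5-fold only through the pseudocount of 1. It passed 1.5-fold with a pseudocount of 0.1 (0.60). It also passed after centring on the median of all genes (0.61), after rescaling to the same total (0.68) and without mitochondrial genes (0.73). These last 3 settings moved the median of all genes up by 0.04, 0.10 and 0.15, so they raised genes in general. The summed level of the 3 EIF4EBP genes over that of EIF4E was 1.69 in the control against 2.46 after knockdown. This ratio is one of transcripts in single libraries and gives neither protein nor phosphorylation.

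The helicase group had 5 of 5 genes below 0, also after both rescalings, and a median of -0.31. Of all genes 53.4% were below 0 as deposited, and of abundant ones 62.6%. After rescaling to the same total 44.0% of all genes were below 0, and 39.7% with mitochondrial genes also left out. EIF4A1, the main helicase of initiation, had 709 FPKM in the control against 541 FPKM after knockdown (-0.39). Its close relative EIF4A2 had 47.0 and 37.8 FPKM (-0.31). The ratio of EIF4A1 to EIF4A2 was 15.1 in the control against 14.3 after knockdown. EIF4A3 belongs to the family by sequence but serves the exon junction complex, which marks spliced messages. It had 76.6 and 48.3 FPKM (-0.66), the third lowest difference of the members, and -0.49 without mitochondrial genes. The coding sequence of EIF4A1 was 76.9% identical to that of EIF4A2 and 65.8% to that of EIF4A3. The helicase cofactors EIF4B, at 255 and 223 FPKM (-0.20), and EIF4H, at 164 and 141 FPKM (-0.22), differed less. EIF4A1 and EIF4A2 host small nucleolar RNAs, and EIF4A1 shares exons with the read-through gene SENP3-EIF4A1. The part of shared reads in their values was not tested.

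Genes of start site selection were below 0 in 4 of 4 cases, beside 53.4% of all genes and 62.6% of genes at a mean of 20 FPKM or more. Without mitochondrial genes 3 of 4 were below 0, beside 39.7% of all genes. EIF1AX, of the factor that holds the scanning ribosome open, had 48.7 FPKM in the control against 35.6 FPKM after knockdown (-0.44). EIF5, the GTPase activator of EIF2, had 122 and 98.4 FPKM (-0.30). EIF1, which guards against wrong start codons, had 324 and 277 FPKM (-0.22), and its paralog EIF1B had 33.4 and 29.98 FPKM (-0.15). EIF1AD, a gene named for an EIF1A domain, had 21.8 and 26.1 FPKM (0.25) and was the second highest member.

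The subunit genes of EIF2 and of its exchange factor EIF2B, where the integrated stress response acts, had differences between -0.31 and -0.07. EIF2S1, the alpha subunit that stress kinases phosphorylate, had 48.4 FPKM in the control against 39.2 FPKM after knockdown (-0.30). EIF2S2, the beta subunit, had 71.2 and 57.4 FPKM (-0.31). EIF2S3, the gamma subunit, had 131 and 123 FPKM (-0.10), so the alpha and beta genes were lower by a similar amount and the gamma gene by less. EIF2S3L is a copy of EIF2S3 with 25 mismatches in 1416 coding bases. It had 5.39 and 4.85 FPKM (-0.13) and is uncertain for that reason. The 5 EIF2B genes were all below 0 (53.4% of all genes), between -0.29 for EIF2B4 and -0.07 for EIF2B5, with a median of -0.14. EIF2B1, EIF2B2 and EIF2B3 had differences of -0.10, -0.14 and -0.28. Without mitochondrial genes, 2 of the 5 EIF2B genes and 2 of the 6 tRNA delivery genes were below 0, beside 39.7% of all genes. These counts lay near that background, so no direction holds for these groups. EIF2A, which can deliver tRNA without EIF2, had 41.8 and 46.4 FPKM (0.15). EIF2D, with a similar activity, had a difference of -0.04.

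EIF5B, the GTPase of subunit joining, had 50.6 and 39.0 FPKM (-0.37). EIF6, which keeps large subunits apart until they are mature, had 105 and 88.7 FPKM (-0.24).

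EIF5A is a translation elongation and termination factor despite its name, and is the only known protein family that carries hypusine, a modified lysine. The coding bases around codon 50, the lysine that carries the modification, are shown because they tell how far reads of the family can be told apart. The sequences are coding bases 118 to 180 of GENCODE release 29 transcripts on GRCh38, 5′ to 3′ on the strand of each gene, with the codon in capitals.
EIF5A (chromosome 17, plus strand): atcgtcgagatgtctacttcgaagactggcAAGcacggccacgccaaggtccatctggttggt
EIF5AL1 (chromosome 10, plus strand): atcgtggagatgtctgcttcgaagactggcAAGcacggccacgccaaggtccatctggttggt
EIF5A2 (chromosome 3, minus strand): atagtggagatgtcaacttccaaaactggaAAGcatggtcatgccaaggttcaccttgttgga

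In this window EIF5AL1 differed from EIF5A at 2 bases and EIF5A2 at 13. Over the whole coding sequence EIF5AL1 had 5 mismatches in 462 aligned bases, whereas EIF5A2 was 71.9% identical to EIF5A. EIF5A was the most abundant member, with 859 FPKM in the control against 601 FPKM after knockdown (-0.51), and 13.0% of all genes had a lower difference. EIF5AL1 had 5.004 and 4.01 FPKM (-0.26) and is uncertain, since how reads were divided between near-identical copies was not stated. EIF5A2 had 8.76 and 6.37 FPKM (-0.40). The list of hypusine enzymes held 2 genes, both below 0, beside 53.4% of all genes. DHPS had 22.1 and 18.3 FPKM (-0.26), and DOHH had 6.10 and 3.20 FPKM (-0.76). The value of DOHH was -0.11 when only its highest transcript was used.

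Transcript values were compared within each member, as a description without a test. The members had 266 listed transcripts, of which 173 reached 1 FPKM in either library, and 128 of these (74.0%) had a difference below 0. This was 53.2% over all genes kept and 57.0% over genes at a mean of 20 FPKM or more. Of the 44 members with more than 1 listed transcript, 41 (93.2%) had the same leading transcript in both libraries, beside 86.9% of all such genes and 92.5% of abundant ones. Among 96 transcripts with at least 10% of their gene in a library, 5 from 4 genes (5.21%) differed in share by 10 percentage points or more. The same was found for 30.5% of such transcripts of all genes kept and 12.7% of those of abundant genes. These shares are estimates from overlapping transcripts and carry no error here.

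In EIF4E2 the transcript ENST00000409322 (797 bases, with a coding sequence of 600 bases) had 12.2 FPKM in the control against 2.22 FPKM after knockdown. Its share of the gene was 24.1% and 8.31%. The full-length transcript ENST00000258416, with a coding sequence of 735 bases, had 17.2 and 11.2 FPKM. Their differences were -2.04 for the short transcript and -0.58 for the main one. ENST00000409098 (9.66 and 4.55 FPKM) and ENST00000454501 (3.36 and 1.41 FPKM) were lower too, whereas ENST00000409167 (1.60 and 2.53 FPKM) was higher. The lower total of EIF4E2 was thus spread over several transcripts, with the largest gap in ENST00000409322.

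In EIF3B both full-length transcripts, which have the same coding length of 2442 bases, were lower. ENST00000360876 had 64.6 FPKM in the control against 33.1 FPKM after knockdown, and ENST00000397011 had 43.1 and 15.4 FPKM. The incomplete models ENST00000431643 (11.7 and 4.67 FPKM) and ENST00000413917 (10.1 and 5.02 FPKM) were lower too, so the difference of EIF3B was spread over its transcripts.

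In EIF5A2 the full-length transcript ENST00000295822 was at 4.17 and 4.56 FPKM, and the lower total came from ENST00000474417, an incomplete model of 457 bases, at 4.23 and 1.82 FPKM. The share of the full-length form was 47.6% in the control against 71.5% after knockdown. With the highest transcript alone, the difference of EIF5A2 turned from -0.40 to 0.10. In EIF3C, ENST00000564243 was close to 0 in the control and had 7.96 FPKM in the knockdown library, or 12.4% of the gene. The 2 leading EIF3C transcripts were lower, ENST00000331666 at 35.3 and 17.5 FPKM and ENST00000566866 at 31.5 and 17.8 FPKM. In EIF2S1 the main transcript ENST00000256383 went from 67.5% to 77.5% of the gene, at 32.7 and 30.4 FPKM.

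**Figure D3:**
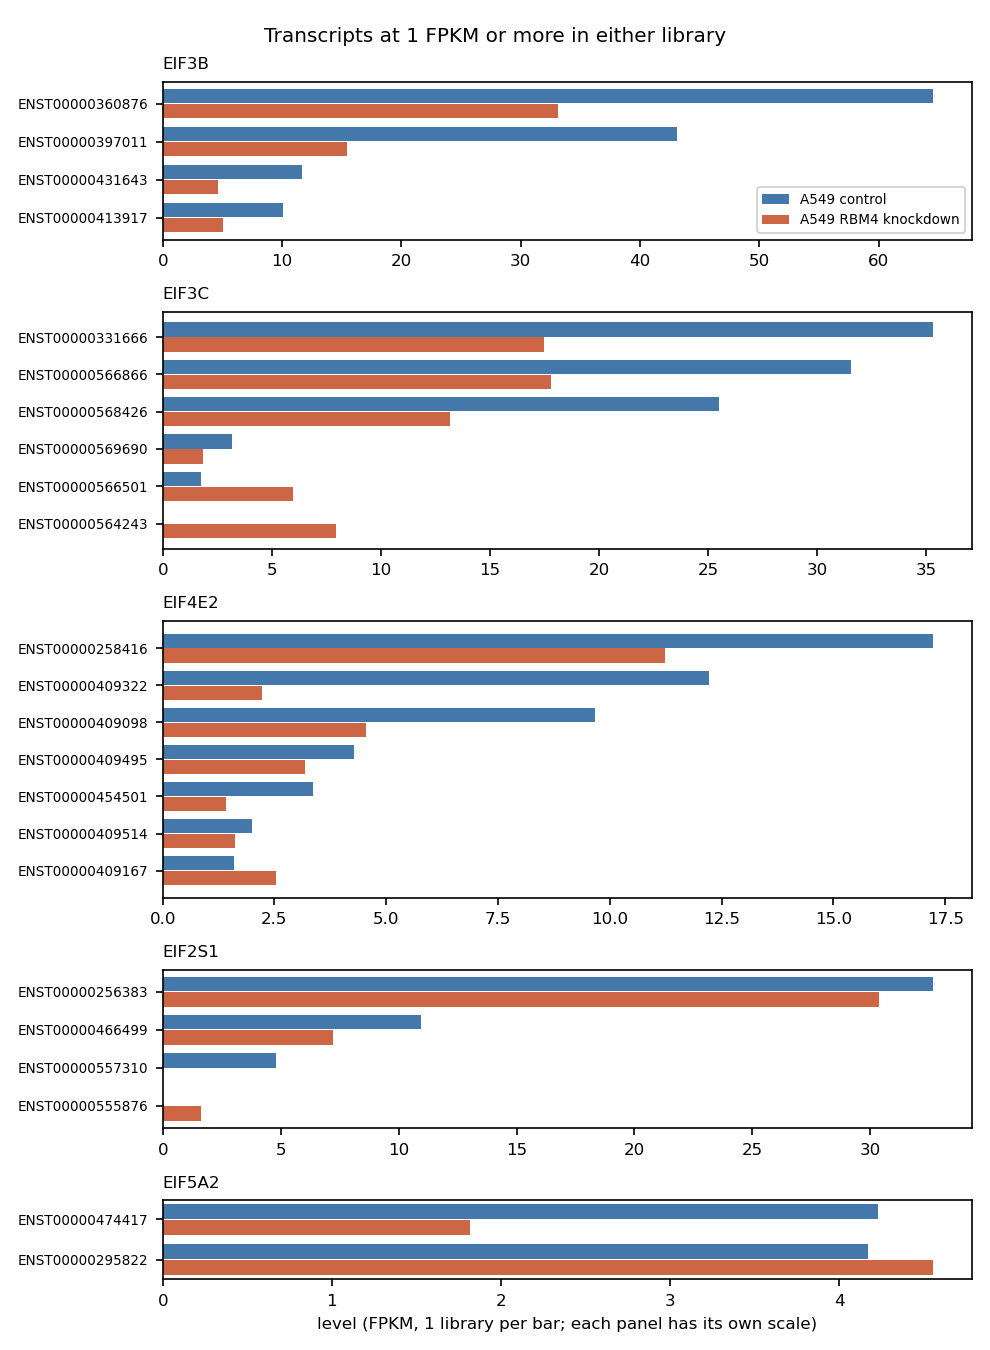
Level (FPKM, each panel on its own scale) of the transcripts at 1 FPKM or more in either library for EIF3B and the 4 genes with a shift in transcript share, in the A549 control and RBM4 knockdown libraries. The EIF3B bars are shorter in the knockdown for all 4 transcripts, while in EIF4E2 the largest gap is that of ENST00000409322 (12.2 and 2.22 FPKM).

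Initiation factor genes include known targets of MYC, which binds the E-box CACGTG with its partner MAX. RefSeq promoter sequences (GRCh38.p14, 250 bases before to 50 after the start) matched 42 of the 51 members, and 11 of these held CACGTG, which reads the same on both strands. This was 26.2% of the matched members, beside 8.77% of all symbols with a promoter sequence and 12.8% of the genes that reached 1 FPKM. The windows below are those of the 3 members that carry the motif and had the lowest differences. They lie before the gene's first base, 5′ to 3′ on the gene's strand, with the motif in capitals.
EIF4A3, chr17:80147227-80147266, minus strand: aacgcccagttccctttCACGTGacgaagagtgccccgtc
EIF4G1, chr3:184314445-184314484, plus strand: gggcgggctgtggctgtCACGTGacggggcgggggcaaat
EIF5A2, chr3:170908802-170908841, minus strand: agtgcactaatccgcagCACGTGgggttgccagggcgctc

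The medians of members with and without the motif were close. The 11 members with it had a median of -0.22, and 10 of them were below 0. The 30 detected members with a promoter and no match had a median of -0.23, and 25 of them were below 0. Both counts stand beside 53.4% of all genes and 62.6% of genes at a mean of 20 FPKM or more. A match describes the letters of this window only.

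Genes around initiation were followed as a list of 44 genes of signalling, scanning, elongation and termination. All 44 reached 1 FPKM, 30 (68.2%) were below 0 and the median was -0.12. Of all genes 53.4% were below 0, with a median of -0.04. Of genes at a mean of 20 FPKM or more 62.6% were below 0, with a median of -0.13, so the list lay near the latter. At 2-fold, 2 were higher (4.96% of all genes) and 1 was lower (2.25% of all genes). The lowest was PABPC1, the poly(A)-binding protein that bridges the tail and EIF4G, at 520 FPKM in the control against 178 FPKM after knockdown (-1.54). PABPC1 has processed copies, and sharing of reads with them was not tested. DOHH, described above, was also among the 3 lowest.

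The highest was MKNK2, a kinase of EIF4E, at 19.0 FPKM in the control against 45.4 FPKM after knockdown (1.21). Its relative MKNK1 had 8.77 and 12.6 FPKM (0.48). EEF1A2, the tissue-restricted form of the elongation factor that delivers tRNA, had 56.7 and 117.7 FPKM (1.04), while the main form EEF1A1 had 2810 and 2234 FPKM (-0.33). With the highest transcript alone, MKNK2 was at 0.82 and EEF1A2 at 0.9985, both short of 2-fold. The 4 EIF2 kinases ranged from EIF2AK1 at -0.62 to EIF2AK3 at 0.28, and ATF4, the transcription factor translated when EIF2 is phosphorylated, had 165 and 199 FPKM (0.27).

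**Figure D4:**
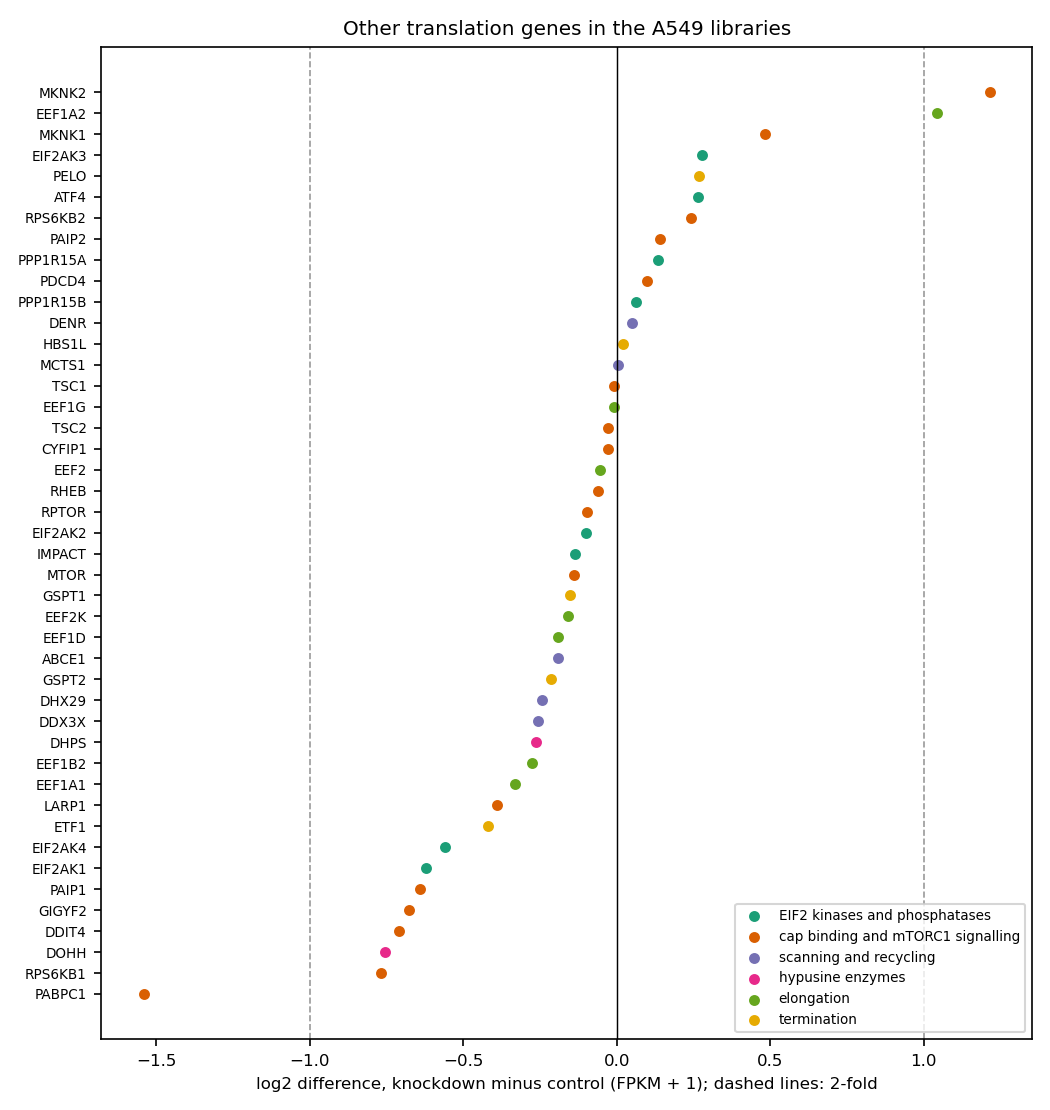
Log2 difference between the A549 knockdown and control libraries for 44 other translation genes, coloured by function, with dashed lines at 2-fold. PABPC1 (-1.54) lies left of the lower 2-fold line, and MKNK2 (1.21) and EEF1A2 (1.04) lie right of the upper one.

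**Figure D5:**
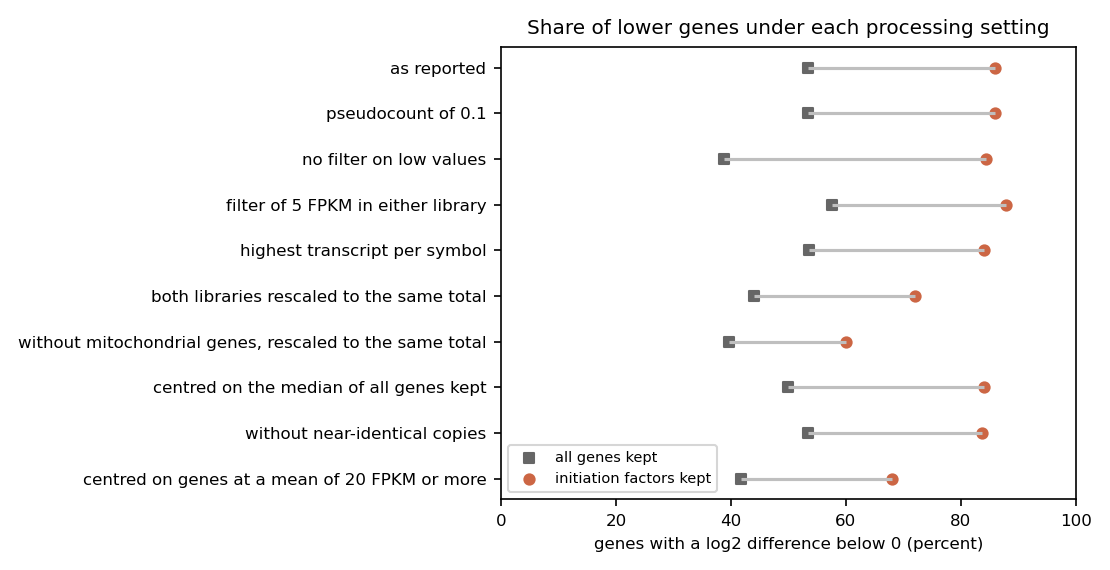
Share of genes with a difference below 0 (percent) for the initiation factors (circles) and all genes kept (squares) under each way of processing the A549 libraries. The members are at 86.0% as reported and at 60.0% without mitochondrial genes, where all genes are at 53.4% and 39.7%.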

How the data were processed

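RNA of 4 samples was sequenced from Illumina TruSeq libraries, per the labels' protocols. The submitters' processing notes list CASAVA 1.8.2, TopHat, Cufflinks and the build hg38. Their order, the annotation and any strand setting are not given in the sources used here. FPKM per protein-coding transcript were deposited by the authors. No read totals were given, so depth is unknown and no counting interval was computed.

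Of the A549 columns, the one named for the line alone was read as control, and the one with an added number as knockdown. The H1299 table has 3 value columns for 2 samples under names that match no label. Those 3 columns were not used, and only its symbols were read.

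FPKM were summed per symbol, genes at 1 FPKM or more in either library were kept, and a pseudocount of 1 was added before log2. All members were named, with values by library for at least the 8 highest and 8 lowest, for paralog groups and for the 3 highest and 3 lowest other genes, of which 1 of the lowest is not reported here. The members and lists were chosen with earlier results of these data known. Positions and transcripts came from GENCODE release 29, which matched 265 of the 266 transcripts. Coding sequences were aligned with Biopython 1.88. Tables were made with pandas 2.3.3, and the counting was tested on simulated data. Alternatives covered pseudocount, filter, transcript choice, scaling, threshold and copies. The planned comparison of protein sequences was not run.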

Additional observations from a re-analysis of the deposited data

How the results depend on the processing

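With 1 library per group, values have no replicate spread, and a move of 0.1 on the log2 scale was used as the tolerance. The members' median of -0.22 became -0.113 after rescaling to the same total, -0.0591 with mitochondrial genes also left out, and -0.0947 after centring on genes at a mean of 20 FPKM or more, a setting chosen after seeing the data. The count of members lower by 2-fold, 1 as reported, was 0 with the highest transcript per symbol, 0 without mitochondrial genes and 4 at a threshold of 1.5-fold. Members below 0 ranged from 30 to 43, and members higher by 2-fold numbered 0 under all settings run. At 1.5-fold, run with the other choices as reported, members higher also numbered 0, although EIF4EBP2 (0.57) passed 1.5-fold under other settings, up to 0.73. Of the other translation genes, 2 were higher by 2-fold as reported and 0 with the highest transcript, and 1 was lower as reported and 7 at 1.5-fold, where 9.83% of all genes and 11.8% of abundant ones were lower. At 1.5-fold 2 were higher, beside 12.7% of all genes. Their median of -0.12 became -0.0145 after rescaling, and changed sign to 0.0376 without mitochondrial genes and to 0.0082 after centring on abundant genes. Among 22 single genes followed, 2 changed sign, EIF4G3 and EIF5A2. Over all genes, 4.96% were higher and 2.25% lower by 2-fold as deposited, and 6.62% and 1.44% without mitochondrial genes. The causes of these moves were not tested beyond the shift of the median of all genes. No paired analysis was possible because the value columns of the H1299 table could not be matched to its samples, which left 1 line with 1 library per group. Unknown depth limits the genes at low FPKM most.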

Other observations

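The 51 initiation factor genes held 0.892% of all FPKM in the A549 control library and 0.775% in the RBM4 knockdown library. Mitochondrially encoded genes took 18.6% and 21.7% of the FPKM. With those left out, the members' share was 1.10% and 0.990%. EIF4G1 had several transcripts listed at 0 in the knockdown library alone, which were singled out after their values were seen: ENST00000444134 had 4.47 FPKM, ENST00000392537 had 3.79 FPKM and ENST00000427607 had 3.25 FPKM in the control. The EIF4G1 transcript ENST00000426123 had 4.04 and 0.35 FPKM. The leading EIF4G1 transcripts, ENST00000346169 at 31.3 and 23.6 FPKM and ENST00000435046 at 26.4 and 24.6 FPKM, were lower by less.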
